A study of Mus musculus with 24 samples.

Results

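The 10 genes described here encode enzymes of, or linked to, the synthesis of saturated and monounsaturated fatty acids from citrate, or regulators of it. They were taken from the deposited expression table by their symbols: Acly, Me1, Acaca, Acacb, Fasn, Elovl6, Scd1, Scd2, Thrsp and Srebf1. All 10 were among the 55487 genes of the table. They were also among the 19325 genes tested, which had at least 1 TPM (transcripts per 1000000, a share of the library's RNA per transcript length) in at least 3 libraries. RNA was sequenced from 24 mammary glands of aged mice, 3 in each of 8 groups, 12 from each of a pair of transgenic lines. In the line called Esr1 here (MMTV-rtTA/tet-op-Esr1) the tet-operator transgene carries the oestrogen receptor alpha gene, and in the line called CYP19A1 (MMTV-rtTA/tet-op-CYP19A1) it carries aromatase, the enzyme that makes oestrogens from androgens. Both are switched on by rtTA under the MMTV promoter, which is active mainly in mammary epithelium, and mice without a transgene were not analysed here. The transgene had been induced for 6 months in 18-month-old mice, 1 group per line, and for 8 months in 20-month-old mice, 3 groups per line. The descriptions of the 18-month libraries carry the tag Doxy, read here as doxycycline, the inducer. Those of the 20-month libraries carry no such tag. Of the older groups 1 has no drug named (called untreated here, although an unexplained tag, PLA, marks these libraries in their descriptions), and the others had carried a pellet under the skin for the last 2 months. The pellet released either 25 mg of tamoxifen, a selective modulator of the oestrogen receptor, or 2.5 mg of letrozole, an aromatase inhibitor, over 60 days. Samples within a group are numbered as biological replicates in the labels.

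De novo fatty acid synthesis builds palmitate from acetyl-CoA. ATP citrate lyase makes the acetyl-CoA in the cytosol, acetyl-CoA carboxylase turns it into malonyl-CoA, and fatty acid synthase joins the carbon units with reducing power from NADPH. Elongases and stearoyl-CoA desaturases then lengthen the product and place a double bond. In the mammary gland the pathway runs in adipocytes of the fat pad and, during lactation, in secretory epithelium that makes milk fat, and the transcription factor SREBP-1, encoded by Srebf1, drives many of its genes. Because RNA came from whole glands, a lower level can come from fewer cells of a type or from less RNA per cell, and these cannot be told apart.

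The promoters of 3 members are shown because Fasn and Srebf1 were lower together in the letrozole-treated Esr1 glands, while Acacb had a different pattern across the groups. RefSeq (GRCm38.p6, the same build as mm10) gave 11 start sites for 8 of the 10 members, and Scd1 and Scd2 were not matched. Each sequence holds the 250 bases before a start site, 5′ to 3′ along the gene's strand, and capitals mark the matches to the element bound by the oxysterol receptor LXR (TGACCGGTAGTAACC in Fasn, TGACCGCCAGTAACC in Srebf1) and to CCAAT or its reverse complement ATTGG. Fasn and Srebf1 lie on the minus strand and Acacb on the plus strand. Of the 3 Srebf1 start sites the one with the LXR element is printed. The windows of Fasn, Srebf1, Acacb and Acaca lie inside the chromosome spans given for these genes below. They come before internal starts, and sequence upstream of those spans was not searched.
Fasn promoter, chr11:120824548-120824797: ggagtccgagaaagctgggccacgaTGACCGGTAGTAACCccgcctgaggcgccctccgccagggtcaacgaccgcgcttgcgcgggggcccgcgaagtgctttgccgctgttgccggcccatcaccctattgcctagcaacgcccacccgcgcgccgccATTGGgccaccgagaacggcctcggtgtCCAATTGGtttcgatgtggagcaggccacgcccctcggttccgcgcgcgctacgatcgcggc
Srebf1 promoter, chr11:60210472-60210721: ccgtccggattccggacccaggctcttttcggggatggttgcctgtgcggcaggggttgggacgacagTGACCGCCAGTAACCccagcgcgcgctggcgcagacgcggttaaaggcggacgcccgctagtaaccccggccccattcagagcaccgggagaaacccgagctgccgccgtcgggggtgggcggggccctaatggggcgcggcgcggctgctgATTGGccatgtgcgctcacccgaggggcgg
Acacb promoter, chr5:114165268-114165517: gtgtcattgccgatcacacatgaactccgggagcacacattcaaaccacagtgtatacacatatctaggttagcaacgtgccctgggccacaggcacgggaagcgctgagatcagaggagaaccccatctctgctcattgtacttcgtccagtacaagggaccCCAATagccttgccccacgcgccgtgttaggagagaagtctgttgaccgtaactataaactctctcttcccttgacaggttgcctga

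With both strands searched over the 250 bases before each start, the LXR element was found in 12 of 32851 start sites (0.0365%), any 4 bases being allowed in its middle. Among the members it was in Fasn, where it began 225 bases before the start, and in Srebf1, where it began 182 bases before it. The letters searched follow the form known from these promoters, so their presence there is no independent result. The CCAAT box, bound by the factor NF-Y, was in 33.8% of all start sites and in those of 5 members (Fasn, Acacb, Me1, Thrsp and Srebf1). In Fasn a CCAAT and an ATTGG overlap in the run CCAATTGG. GGGCGG, the GC box bound by SP1, was in 32.7% of start sites and in 3 members, Acly, Me1 and Srebf1. TCACNCCAC, a form of the sterol response element, was in 1.05% and CACGTG, an E-box, in 6.02%. Neither was found in the windows of the 8 members, which do not cover the 5′ ends of the Fasn, Srebf1, Acacb and Acaca spans. GGGCGG shares no base with the CCAAT matches, and these matches describe letters and not binding.

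The libraries differed in their tissue content. Epithelial keratins and adipocyte genes were present in every library, as the label mammary gland requires. The mean log2(TPM + 1) of 14 white adipocyte markers (the fat score) ranged from 6.16 to 9.20 between libraries. That of 14 epithelial markers ranged from 2.50 to 5.73. That of 11 milk and secretory markers ranged from 3.22 to 10.1 and that of 12 skeletal muscle markers from 1.33 to 10.8. The 9 skin and sebaceous markers summed to at most 10.7 TPM in a library, and 1 of them, Lor, was at 0 in all 3 libraries of 3 groups. Genes annotated as ribosomal RNA, together with Gm26917 and Gm42418, which were added by name, took 0.0668% to 17.5% of a library. The highest share was in Esr1 20-month untreated replicate 2, whose fat score of 6.16 was also the lowest. Group means of Esr1 were 12.5 to 15.99 TPM in the Esr1 line and 13.9 to 17.2 TPM in the CYP19A1 line, so these levels do not separate the lines and do not check the labels. Read depth is unknown, because TPM values keep none.

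The 10 members together took 0.0964% of the RNA in the lowest library (Esr1 tamoxifen replicate 2) and 0.807% in the highest (CYP19A1 18-month replicate 3), and Scd1 alone made up 45.2% to 89.1% of that sum. TPM is per transcript length, so levels can be compared between genes, and on this scale the order of the medians in the CYP19A1 line ran from Scd1 and Fasn at the top to Acacb and Elovl6 at the bottom. The CYP19A1 18-month group had the highest mean for 9 of the 10 members, and letrozole-treated Esr1 glands had the lowest mean for 7 (Acly, Acaca, Fasn, Elovl6, Scd2, Thrsp and Srebf1). The ratio of the highest to the lowest group mean was 10.4 for Fasn, 7.76 for Acly, 7.14 for Elovl6, 6.97 for Acaca, 5.29 for Thrsp, 3.64 for Scd1, 3.49 for Srebf1, 3.48 for Scd2, 3.43 for Acacb and 1.75 for Me1.

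**Figure D1:**
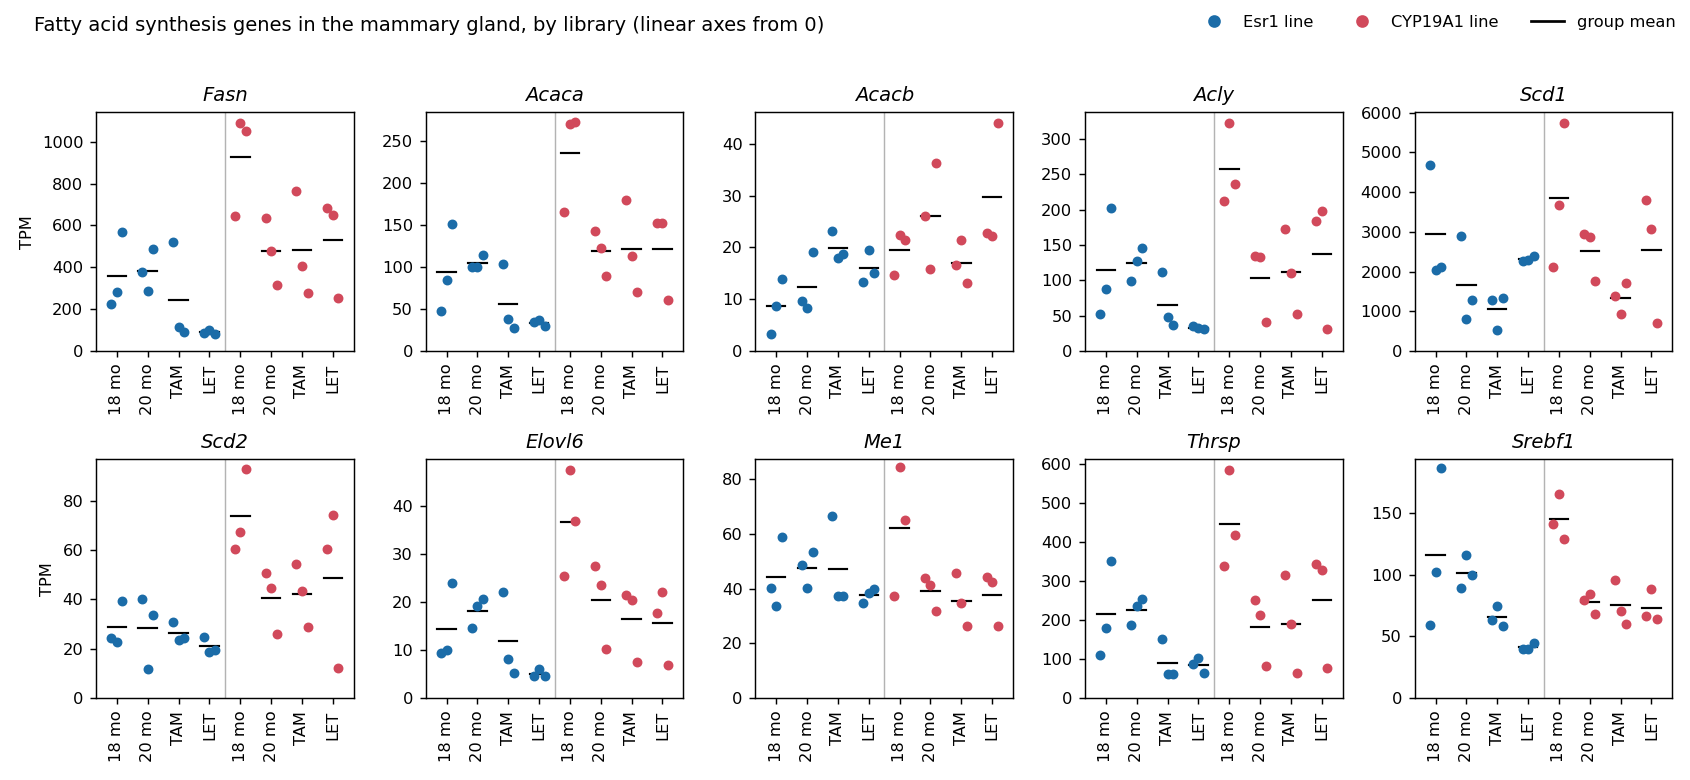
Level of each member (TPM, linear axes from 0) in the 24 libraries, 1 point per library, with a line at each group mean; TAM is tamoxifen, LET is letrozole, and blue and red are the Esr1 and CYP19A1 lines. The 3 Esr1 letrozole points for Fasn lie between 82.4 and 102 TPM, while the CYP19A1 18-month points lie between 644 and 1090.0.

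Acly, ATP citrate lyase (ENSMUSG00000020917.17, chr11:100476352-100528000), was at 35.8, 32.6 and 30.8 TPM in the 3 letrozole-treated Esr1 libraries and at 99.5, 127 and 146 TPM in the untreated ones of the same age, without overlap. In CYP19A1 glands it was at 212, 323 and 236 TPM at 18 months and at 134, 132 and 41.4 TPM at 20 months, and the third 20-month library was low for this gene, near the Esr1 letrozole values. Between replicates of tamoxifen-treated and letrozole-treated CYP19A1 glands Acly also spread widely, at 172, 110.4 and 52.1 TPM and at 184, 198 and 30.4 TPM. Me1, the cytosolic malic enzyme that supplies NADPH (ENSMUSG00000032418.15, chr9:86581363-86695914), varied least of the members. Its group means ran from 35.5 ± 9.64 TPM (SD, n = 3, as for each mean and SD of a group below) in tamoxifen-treated to 62.3 ± 23.6 TPM in 18-month CYP19A1 glands. For Me1 each of the 7 neighbouring pairs in the order of group means differed by less than the larger SD of the pair; for Acly 6 of 7 did, the exception being the gap below the highest group.

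Acetyl-CoA carboxylase is encoded by a pair of genes with separate roles: Acaca, the cytosolic form that feeds synthesis (ENSMUSG00000020532.18, chr11:84129635-84401651), and Acacb, the form at the mitochondrial surface whose malonyl-CoA restrains fatty acid oxidation (ENSMUSG00000042010.16, chr5:114146321-114250761). Acaca was at 34.6, 36.6 and 30.1 TPM in letrozole-treated and at 100.2, 100.1 and 114 TPM in untreated 20-month Esr1 libraries. At 18 months it was at 47.8, 84.9 and 151 TPM in the Esr1 line and at 165, 269.9 and 272 TPM in the CYP19A1 line, all CYP19A1 values being the higher ones. Acacb had a different order of groups, being lowest at 18 months in the Esr1 line, with 3.28, 8.76 and 13.9 TPM, and highest in letrozole-treated CYP19A1 glands, with 22.7, 22.2 and 44.1 TPM. Its level was 23.1, 17.98 and 18.7 TPM in tamoxifen-treated, 13.4, 19.5 and 15.04 TPM in letrozole-treated and 9.67, 8.32 and 19.1 TPM in untreated 20-month Esr1 libraries, which overlapped.

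Fasn, fatty acid synthase (ENSMUSG00000025153.9, chr11:120805958-120825166), was at 224, 281 and 570.2 TPM in the Esr1 line at 18 months and at 377, 289 and 487 TPM at 20 months. It was at 522, 114 and 88.95 TPM with tamoxifen and at 84.96, 102 and 82.4 TPM with letrozole. The tamoxifen group thus held a library above every untreated 20-month one beside a pair near the letrozole level. The 3 letrozole libraries lay close together and below all others of their line except 1 tamoxifen library within their range. CYP19A1 libraries held Fasn at 644, 1090.0 and 1053 TPM at 18 months and at 637, 476 and 314 TPM at 20 months. With tamoxifen it was at 766, 407 and 279 TPM and with letrozole at 683, 650.2 and 254 TPM. The 3 groups of 20 months overlapped one another and lay below 2 of the 3 libraries of 18 months. Of the 7 neighbouring pairs in the order of the Fasn group means, 6 differed by less than the larger SD of the pair, the gap below the CYP19A1 18-month group being the exception.

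Elovl6, the elongase that extends palmitate (ENSMUSG00000041220.10, chr3:129532386-129638495), was at 4.68, 6.13 and 4.55 TPM in letrozole-treated and at 14.7, 19.1 and 20.7 TPM in untreated 20-month Esr1 libraries, without overlap. It reached 36.6 ± 11.1 TPM in 18-month CYP19A1 glands. The stearoyl-CoA desaturases Scd1 (ENSMUSG00000037071.3, chr19:44394450-44407709) and Scd2 (ENSMUSG00000025203.6, chr19:44293676-44306864) are neighbours on chromosome 19 with similar sequences, so reads may be split between them with some uncertainty. Scd1 was at 2265, 2284 and 2396 TPM in letrozole-treated Esr1 libraries, inside the range of 2897, 812 and 1288 TPM in untreated ones. It was at 1293, 540.1 and 1342 TPM in tamoxifen-treated Esr1 and at 1375, 920.0 and 1722 TPM in tamoxifen-treated CYP19A1 libraries, where all 3 values were below the 2944, 2865 and 1759 TPM of untreated CYP19A1 glands. Scd2 was at 24.2, 22.8 and 39.3 TPM in the Esr1 and 60.6, 67.4 and 92.6 TPM in the CYP19A1 18-month libraries, without overlap. The untreated 20-month Esr1 libraries held Scd2 at 40.1, 11.6 and 33.7 TPM, and the lowest of these was replicate 2, the library of lowest fat score.

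The regulators were Srebf1 (ENSMUSG00000020538.15, chr11:60199084-60224186) and Thrsp (Spot 14; ENSMUSG00000035686.8, chr7:97412933-97417550), a nuclear and cytosolic protein linked to lipogenesis whose loss in mice lowers milk fat synthesis. Srebf1 was at 89.1, 116 and 99.5 TPM in untreated 20-month Esr1 glands, at 63.7, 74.7 and 58.3 TPM with tamoxifen and at 40.2, 40.04 and 44.5 TPM with letrozole, so that the 3 groups did not overlap. In the CYP19A1 line it was at 141, 165 and 129 TPM at 18 months and at 79.9, 84.7 and 68.4 TPM at 20 months, again without overlap. With tamoxifen and letrozole the CYP19A1 libraries held 95.5, 70.7 and 59.7 and 66.7, 88.5 and 64.4 TPM, over the range of the untreated ones. Thrsp was at 187, 237 and 253 TPM in untreated, 151, 61.03 and 60.7 TPM in tamoxifen-treated and 87.02, 102 and 64.4 TPM in letrozole-treated 20-month Esr1 libraries, both drug groups lying below the untreated one. In CYP19A1 glands Thrsp was at 446 ± 126 TPM at 18 months and 182 ± 88.6 TPM at 20 months.

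The lines were compared over the mean of their 4 conditions. Fasn, Acaca, Acacb and Scd2 were higher in CYP19A1 than in Esr1 glands, and none of the members was lower, where 3.96% of all tested genes were higher and 3.31% lower. Over 12 libraries a line, Fasn was at 269 ± 183 TPM in the Esr1 and 604 ± 277 TPM in the CYP19A1 line. The difference was 1.37 ± 0.28 on the log2(TPM + 1) scale (standard error; limma, Benjamini-Hochberg adjusted p = 0.0031; 95% interval 0.80 to 1.95). Acaca differed by 1.12 ± 0.23 (adjusted p = 0.0039), from 72.4 ± 41.4 to 149 ± 67.8 TPM. Acacb differed by 0.71 ± 0.20 (adjusted p = 0.031) and Scd2 by 0.85 ± 0.25 (adjusted p = 0.047). This scale understates the change of genes with low levels, such as Acacb and Elovl6. Elovl6 (0.82 ± 0.26, adjusted p = 0.061), Acly (0.83 ± 0.33, 0.16) and Thrsp (0.74 ± 0.31, 0.18) had differences of similar size that did not pass the test. Scd1 differed by 0.34 ± 0.29 (adjusted p = 0.60), Srebf1 by 0.26 ± 0.14 (0.31) and Me1 by -0.061 ± 0.14 (0.89). The median over the members was 0.78, beside 0.0024 over all tested genes. Fasn and Acaca passed in each of the 35 other settings run, whereas Acacb missed the threshold in 13 and Scd2 in 25 of them, with adjusted p up to 0.064 and 0.13. Fasn and Acaca were the only members left without any 1 of 9 libraries (Esr1 20-month untreated replicate 2, tamoxifen replicate 2 and letrozole replicates 1 and 3; CYP19A1 18-month replicates 2 and 3, 20-month untreated replicate 1 and tamoxifen replicates 1 and 2). The calls numbered 6 without Esr1 18-month replicate 3 or CYP19A1 letrozole replicate 3.

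In the same comparison 2 of 14 white adipocyte markers were higher and 2 of 14 epithelial markers lower in the CYP19A1 line, with median differences of 0.24 and -0.30, and 2 of 6 endothelial markers were higher. Milk and secretory markers were negative for 11 of 11, with 1 past the threshold and a median of -0.90. Of these markers 8 had an unadjusted p under 0.05, as did 3623 of the 19325 tested genes. The part of endothelial and of milk and secretory content was not tested. With the fat, epithelial and muscle scores added to the fit, 3 members remained past the threshold (Fasn, Acaca and Acacb). The share of all genes past it in that fit is not given here.

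Within single conditions the difference between lines was resolved for only 1 member. At 18 months all 10 members had a positive difference with a median of 1.29 (0.059 over all genes). The values included Fasn at 1.45 ± 0.55 (adjusted p = 0.35), Acaca at 1.42 ± 0.46 (0.21) and Acacb at 1.24 ± 0.39 (0.19). Of these differences 0 passed limma's test, where 1.36% of all genes did. An unadjusted p under 0.05 was found for 5 members and for 1619 of the 19325 tested genes. The 3 CYP19A1 libraries lay above the 3 Esr1 libraries for 6 members (Acly, Acaca, Acacb, Fasn, Scd2 and Elovl6), as for 8.86% of all genes. In untreated 20-month glands 0 members passed limma's test (background 5.27%), with Fasn at 0.28 ± 0.55 and Acly at -0.44 ± 0.65. There 1 member and 4176 genes had an unadjusted p under 0.05. Srebf1 alone did not overlap, being lower in all 3 CYP19A1 libraries (13% of all genes did so; 3.16% were lower in limma). Under tamoxifen 0 passed limma's test (background 1.01% in either direction and 0.657% higher), with Fasn at 1.34 ± 0.55 (adjusted p = 0.50). Here 2 members and 1519 genes had an unadjusted p under 0.05. Under letrozole Fasn was higher in the CYP19A1 line by 2.42 ± 0.55 (adjusted p = 0.037; 95% interval 1.27 to 3.57), the only member past the threshold, where 0.906% of all genes passed in either direction and 0.357% were higher. Acaca (1.71 ± 0.46, adjusted p = 0.12) did not pass. For 5 members (Fasn, Acaca, Acacb, Elovl6 and Srebf1) the letrozole-treated groups of the lines did not overlap, CYP19A1 being higher, as for 3.95% of all genes. The Fasn call was lost without any 1 of the Esr1 letrozole libraries or without CYP19A1 letrozole replicate 1 or 2, without the filter on low values (adjusted p = 0.063), and with the fat, epithelial and muscle scores in the fit (2.48, adjusted p = 0.060). The difference lay between 2.17 and 2.89 over the 16 other settings run.

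Letrozole was compared with no treatment at 20 months in each line. In Esr1 glands the synthase, the cytosolic carboxylase and Srebf1 were lower, and the most abundant desaturase, Scd1, did not pass. Fasn differed by -2.06 ± 0.55 (adjusted p = 0.027; 95% interval -3.21 to -0.91), Acaca by -1.61 ± 0.46 (0.038) and Srebf1 by -1.26 ± 0.27 (0.010), signs being letrozole minus untreated. These 3 of the 10 members compare with 8.65% of all tested genes, 5.81% lower and 2.85% higher. The group means were 89.7 ± 10.5 against 384 ± 99.5 TPM for Fasn, 33.8 ± 3.33 against 105 ± 8.04 TPM for Acaca and 41.6 ± 2.54 against 102 ± 13.7 TPM for Srebf1. Acly (-1.86 ± 0.65, adjusted p = 0.081), Elovl6 (-1.64 ± 0.51, 0.052) and Thrsp (-1.42 ± 0.61, 0.15) had negative differences of like size that did not pass. Scd1 had a difference of 0.68 ± 0.57 (adjusted p = 0.49; 95% interval -0.52 to 1.88), Acacb of 0.42 ± 0.39 (0.54), Scd2 of -0.26 ± 0.51 (0.80) and Me1 of -0.32 ± 0.29 (0.53). The median over members was -1.34, beside -0.0056 over all genes. All 3 letrozole libraries lay below all 3 untreated ones for 7 members (Acly, Me1, Acaca, Fasn, Elovl6, Thrsp and Srebf1), as for 16.5% of all genes.

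The tissue content of the Esr1 letrozole libraries differed from that of the untreated ones in the same contrast. Of 14 epithelial markers 9 were lower with a median difference of -1.64, their summed level being 165 to 255 TPM against 641 to 839 TPM. Of 11 milk and secretory markers 9 were lower with a median of -5.13, at 382 to 798 TPM against 9423 to 43589 TPM. White adipocyte markers were positive for 14 of 14 with 1 past the threshold and a median of 1.197, at 11818 to 13318 TPM against 2279 to 12865 TPM. Of the muscle markers 0 of 12 passed limma's test, all 12 being positive. With the fat score as a covariate the differences were -2.33 for Fasn (adjusted p = 0.14), -1.69 for Acaca (0.20) and -0.97 for Srebf1 (0.14). With the epithelial score they were -2.43 (0.31), -1.83 (0.32) and -0.78 (0.35), and with the fat, epithelial and muscle scores together -2.79 (0.22), -2.17 (0.25) and -1.03 (0.24). The values for Fasn and Acaca were as large as without the scores, and that of Srebf1 was smaller. Between letrozole-treated and untreated libraries neither the epithelial score (3.36 to 3.88 against 5.06 to 5.37) nor the fat score (8.55 to 8.66 against 6.16 to 8.49) overlapped. Content and treatment therefore cannot be told apart by adding these scores. None passed limma's test in these fits, in which the number of genes past the threshold fell from 1672 to 61, 0 and 19. Without letrozole replicate 2 the calls numbered 0 of the 10 members, and without untreated replicate 1 they numbered 4. Srebf1 was the only member called without untreated replicate 2 or 3 or letrozole replicate 1 or 3. The part of milk and secretory content in these differences was not tested.

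In the CYP19A1 line the same drug gave no resolved difference: 0 members passed limma's test, where 0.0207% of all genes did. An unadjusted p under 0.05 was found for 0 members and for 733 of the 19325 tested genes. Fasn differed by 0.081 ± 0.55 (95% interval -1.07 to 1.23), Srebf1 by -0.093 ± 0.27 (-0.66 to 0.47) and Acaca by -0.053 ± 0.46 (-1.02 to 0.92). The last pair turned positive when the libraries were scaled by the median of gene ratios, which moved the median of all genes from -0.099 to 0.0080. Letrozole replicate 3 of this line was the lowest library of its group for 9 of the members and the highest for Acacb. It held Fasn at 254 TPM beside 683 and 650.2 TPM in the other libraries. Its fat score of 7.37 was the second lowest of all. The lines' letrozole effects differed by 2.14 ± 0.78 for Fasn (adjusted p = 0.34), 1.17 ± 0.38 for Srebf1 (0.32) and 1.55 ± 0.65 for Acaca (0.38). This test of the difference itself passed for 0 members in limma, as for 0 genes in all (4 members and 2277 genes at an unadjusted p under 0.05). The effects are thus not shown to differ between the lines.

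**Figure D2:**
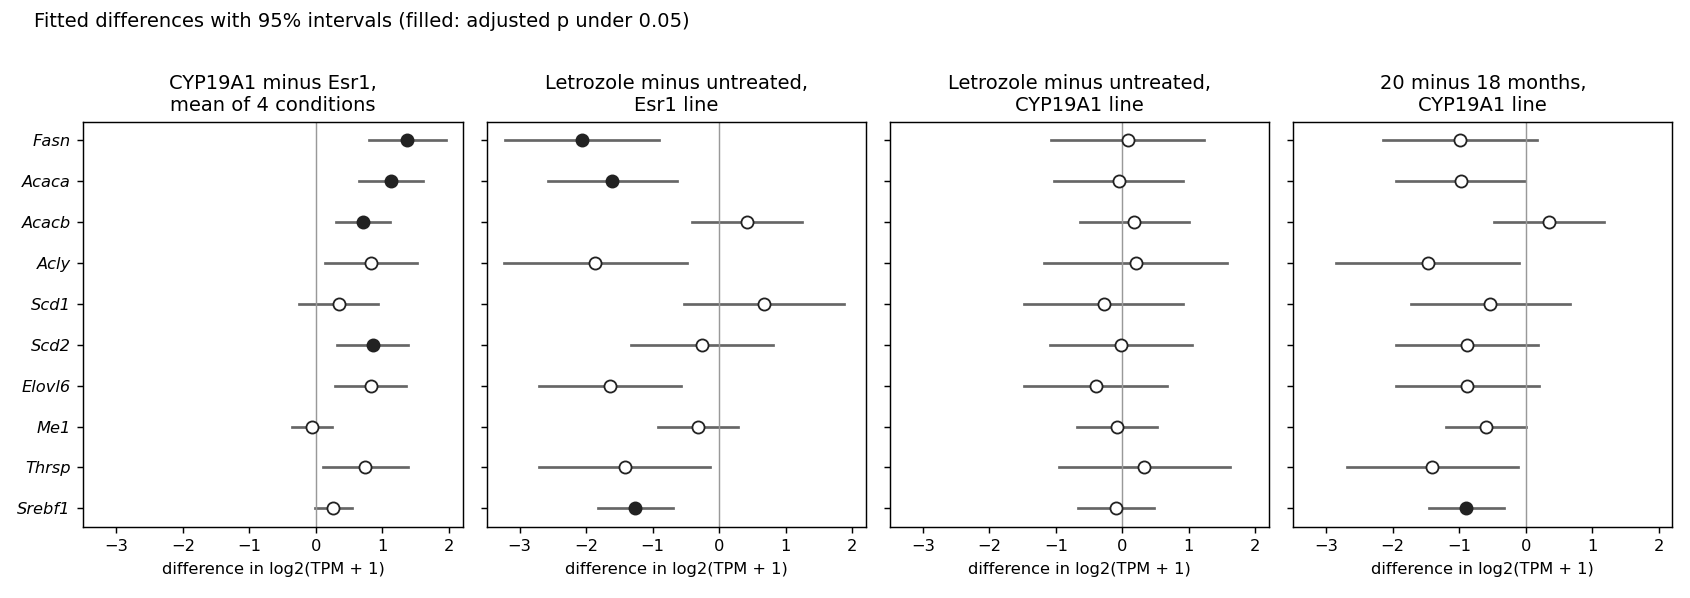
Fitted difference in log2(TPM + 1) of each member (points) with its 95% interval (bars) in 4 comparisons; filled points passed an adjusted p of 0.05. In the letrozole comparison of the Esr1 line Fasn sits at -2.06, Acaca at -1.61 and Srebf1 at -1.26, while in the CYP19A1 line no point is filled.

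Tamoxifen gave 0 calls among the members in either line in limma, where 1.55% of all genes passed in the Esr1 and 0.16% in the CYP19A1 line. An unadjusted p under 0.05 was found for 3 members and 3556 of the 19325 tested genes in the Esr1 line. In the CYP19A1 line 0 members and 846 genes had such a p. In Esr1 glands the differences were -1.43 ± 0.61 for Thrsp (adjusted p = 0.22), -1.11 ± 0.46 for Acaca (0.21), -1.10 ± 0.55 for Fasn (0.30) and -0.62 ± 0.27 for Srebf1 (0.22). Acacb had 0.73 ± 0.39 (0.34). All 3 tamoxifen libraries lay below the untreated ones for Thrsp and Srebf1, as for 6.98% of all genes (0.838% were lower in limma). Milk and secretory markers were negative for 10 of 11 in this comparison, with 0 past limma's threshold (6 at an unadjusted p under 0.05) and a median of -2.65, and their part was not tested. Tamoxifen replicate 1 of this line, with Fasn at 522 TPM, stood apart from replicates 2 and 3 at 114 and 89.0 TPM. In the CYP19A1 line Scd1 had a difference of -0.92 ± 0.57 (adjusted p = 1; 95% interval -2.12 to 0.28), its 3 tamoxifen libraries lying below the 3 untreated ones as for 4.88% of all genes. Fasn had a difference of -0.043 ± 0.55. When the fat, epithelial and muscle scores entered the fit, Scd1 was lower with tamoxifen in the Esr1 line (-1.36 ± 0.37, adjusted p = 0.040), the only member past the threshold. Without the scores its difference was -0.56 ± 0.57 (limma adjusted p = 0.64). The share of all genes past the threshold in the fit with scores is not given here, the 1.55% above being from the fit without them. The 2 drugs compared directly gave 0 members in limma in the Esr1 line (background 0.129%) and 0 in the CYP19A1 line (0.248%). At an unadjusted p under 0.05 there were 2 members and 1475 genes in the Esr1 line. In the CYP19A1 line there were 0 members and 1950 genes. In the Esr1 line all 3 tamoxifen libraries lay below the letrozole ones for Scd1 (6.93% of genes did so), with a difference of -1.24 ± 0.57 (adjusted p = 0.63), while Acly and Srebf1 were higher in all 3 (11.8%). In the CYP19A1 line the tamoxifen libraries lay below the letrozole ones for Acacb, at 13.1 to 21.5 against 22.2 to 44.1 TPM, as for 2.75% of all genes (difference -0.72 ± 0.39, adjusted p = 0.55). The tests of a difference between lines in the tamoxifen effect gave 0 members in limma. At an unadjusted p under 0.05 there were 1 member, Acacb (-1.26 ± 0.56, adjusted p = 0.45), and 2021 genes in all.

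Between 18 and 20 months the Esr1 line gave 0 calls among the members in limma (background 0.00517%), with values from -0.91 for Scd1 to 0.56 for Acacb. An unadjusted p under 0.05 was found for 0 members and for 1214 of the 19325 tested genes. In the CYP19A1 line 9 of 10 members had a negative difference with a median of -0.88, beside -0.23 over all genes. Srebf1 alone passed (-0.89 ± 0.27, adjusted p = 0.044), where 9.45% of genes passed, 6.45% lower and 3.01% higher. Acly was at 257 ± 58.4 TPM at 18 and 103 ± 53.04 TPM at 20 months (-1.47 ± 0.65, adjusted p = 0.14), Thrsp differed by -1.40 ± 0.61 (0.14), Fasn by -0.98 ± 0.55 (0.24) and Acaca by -0.98 ± 0.46 (0.17). The 3 libraries of 20 months lay below the 3 of 18 months for 6 members (Acly, Acaca, Fasn, Scd2, Thrsp and Srebf1), as for 33.8% of all genes. Median-ratio scaling moved the median of all genes in this comparison from -0.23 to -0.02, and measured from that median Srebf1 differed by -0.67 before and -0.61 after it, no longer past the threshold (-0.63, adjusted p = 0.18). The Srebf1 call held in 3 of 16 other settings, and of the 6 libraries compared it held only with 18-month replicate 3 left out. Muscle markers summed to 23.1 to 6843 TPM at 18 months and 18388 to 31651 TPM at 20 months in these libraries, and epithelial markers to 524 to 916 and 363 to 531 TPM. Milk and secretory markers were negative for 11 of 11 with 2 past the threshold and a median of -2.04, at 2329 to 19706 against 397 to 2161 TPM, and their part in the Srebf1 difference was not tested. With the fat, epithelial and muscle scores in the fit no member passed limma's test. The test of a difference between the lines' age effects passed for 0 of 10 members in limma. At an unadjusted p under 0.05 there were 1 member, Srebf1 (-0.85 ± 0.38, adjusted p = 0.57), and 1652 genes in all.

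The balance between paired enzymes was read as a TPM ratio within each library, which does not depend on the library's total; no test was made of these ratios. Acaca exceeded Acacb in every library. Its ratio to Acacb was 10.4, 12.04 and 5.99 in untreated 20-month Esr1 libraries, 4.46, 2.12 and 1.48 with tamoxifen and 2.58, 1.88 and 2.003 with letrozole, so that neither drug group overlapped the untreated one. The group means were 9.46 ± 3.12, 2.69 ± 1.57 and 2.15 ± 0.375. In the CYP19A1 line the ratio was 12.01 ± 0.707 at 18 months and 5.24 ± 2.66 at 20 months, and 7.16 ± 3.19 with tamoxifen and 4.98 ± 3.12 with letrozole, the 3 groups of 20 months overlapping. The ratio of Scd1 to Scd2 was 91.4 to 122 in letrozole-treated and 38.2 to 72.2 in untreated 20-month Esr1 libraries. In tamoxifen-treated glands the ratio was 39.9 ± 15.99 in the Esr1 and 35.5 ± 21.4 in the CYP19A1 line, the lowest group means of their lines. The level of Fasn relative to Adipoq, the adipocyte hormone adiponectin, was 0.138, 0.143 and 0.112 in letrozole-treated against 0.577, 2.61 and 1.54 in untreated 20-month Esr1 libraries. That of Scd1 relative to Adipoq was 3.21 to 3.68 against 4.07 to 7.34. With and without letrozole in CYP19A1 glands Fasn over Adipoq was 1.04 ± 0.253 and 0.9699 ± 0.278.

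**Figure D3:**
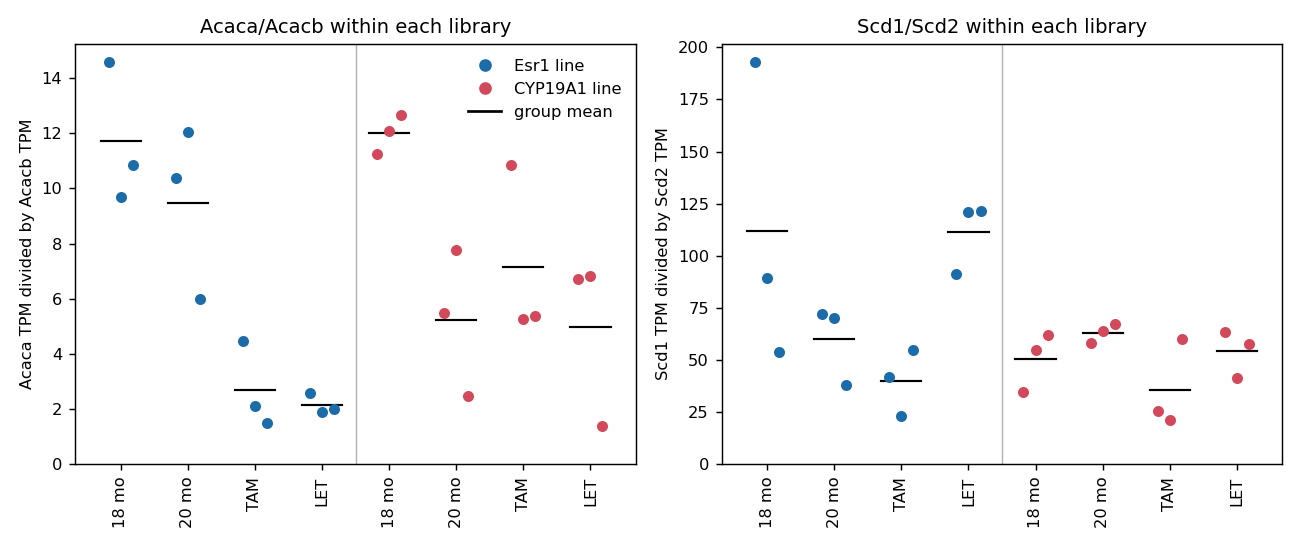
TPM of Acaca divided by that of Acacb (left) and of Scd1 divided by that of Scd2 (right) in each library, with a line at each group mean; linear axes from 0, TAM is tamoxifen and LET is letrozole. The 3 Esr1 letrozole points lie between 1.88 and 2.58 on the left and between 91.4 and 122 on the right.

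Across the 24 libraries, 6 of the other 9 members passed in their correlation with Fasn, where 0.652% of all genes were positively correlated at that threshold. Pearson's r of log2(TPM + 1) with Fasn was 0.982 for Acaca, 0.933 for Elovl6, 0.905 for Acly, 0.877 for Thrsp and 0.758 for Scd2 (each with permutation p = 1e-05, the smallest that 100000 permutations can give, adjusted p = 0.0072). Spearman's rho was 0.986, 0.908, 0.928, 0.901 and 0.869 (permutation p = 1e-05, adjusted p = 0.0077). Srebf1 had r = 0.739 (permutation p = 5e-05, adjusted p = 0.017) and rho = 0.712 (adjusted p = 0.035). Me1 (r = 0.561, adjusted p = 0.16), Scd1 (r = 0.351, adjusted p = 0.48) and Acacb (r = 0.202, adjusted p = 0.67) did not pass. For Scd1 the value was 0.00846 over the 12 Esr1 and 0.739 over the 12 CYP19A1 libraries. After the group means were subtracted, r with Fasn was 0.961 for Acaca, 0.908 for Elovl6, 0.879 for Me1, 0.864 for Thrsp, 0.856 for Acly, 0.662 for Scd2, 0.459 for Srebf1, 0.374 for Scd1 and 0.234 for Acacb. Without the libraries farthest from the median of Fasn (Esr1 letrozole replicates 1 and 3) r was 0.979 for Acaca, 0.9095 for Elovl6, 0.888 for Acly, 0.871 for Thrsp, 0.771 for Scd2 and 0.651 for Srebf1. Fasn over Acaca in TPM lay between 3.503 and 4.48 in the 12 CYP19A1 libraries and between 2.46 and 5.07 in the 12 Esr1 libraries.

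**Figure D4:**
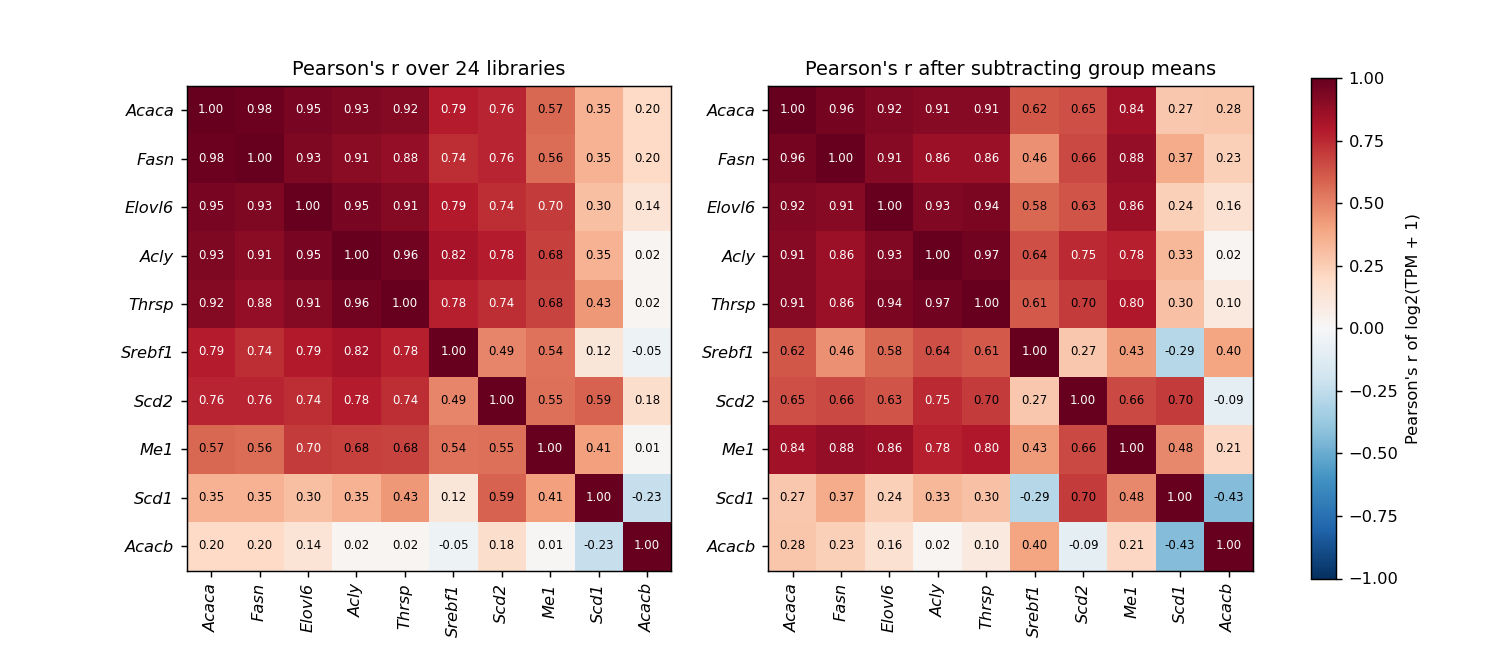
Pearson's r between the log2(TPM + 1) values of each pair of members over the 24 libraries (left) and after subtracting each group's mean (right), colour scale from -1 to 1. Acaca, Fasn, Elovl6, Acly and Thrsp form a block of high values in both panels, and Acacb and Scd1 stand outside it.

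Fat content and the members were then related in each library. Scd1 had r = 0.635 with the fat score (permutation p = 0.00061, adjusted p = 0.0084; rho = 0.565, permutation p = 0.0042, adjusted p = 0.053), with r = 0.708 in the 12 Esr1 and 0.526 in the 12 CYP19A1 libraries. Scd2 had r = 0.566 (permutation p = 0.0029, adjusted p = 0.027; rho = 0.362, permutation p = 0.082, adjusted p = 0.29), with 0.399 and 0.758 in the lines. These 2 of 10 members passed where 12.8% of all genes were positively correlated. Without the libraries of farthest fat score (Esr1 20-month untreated replicate 2 and CYP19A1 letrozole replicate 3) r was 0.537 for Scd1 and 0.266 for Scd2 and 0 members passed the permutation test, so neither call held without those libraries. The other members had r between -0.265 (Srebf1) and 0.0934 (Me1). For Fasn the pooled r was 0.0774 (adjusted p = 0.87), made of -0.398 in the Esr1 and 0.568 in the CYP19A1 line. Acaca (-0.527 and 0.596), Acly (-0.596 and 0.566), Elovl6 (-0.583 and 0.446) and Thrsp (-0.512 and 0.474) had the same signs. The difference between lines was not tested. Within groups, with the epithelial and muscle scores in the same limma fit, a rise of 1 in the fat score went with 0.92 ± 0.21 in log2(TPM + 1) of Scd1 (adjusted p = 0.0034) and 0.94 ± 0.25 of Scd2 (0.0083). Over all genes 42.5% had a slope that passed and 41.5% a positive one. The slope was 0.21 ± 0.39 for Fasn (adjusted p = 0.68; 95% interval -0.62 to 1.04) and -0.10 ± 0.15 for Srebf1 (0.63). The slope of Scd2 did not pass without Esr1 20-month untreated replicate 2 (1.39, adjusted p = 0.087), and neither slope passed after median-ratio scaling.

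Epithelial content was related to the members in the same way. Srebf1 had r = 0.707 with the epithelial score (permutation p = 0.00013, adjusted p = 0.00072; rho = 0.763, permutation p = 6e-05, adjusted p = 0.00037), with 0.911 in the Esr1 and 0.650 in the CYP19A1 line. By r Srebf1 was the only member of 10 past the threshold, where 39.4% of all genes were positively correlated. Its r was 0.757 without the libraries of farthest score. By rho Elovl6 also passed the permutation test (rho = 0.494, adjusted p = 0.034). Its r was 0.369 (permutation adjusted p = 0.14), beside a median r of 0.331 over all tested genes. With the milk and secretory score r was 0.700 for Srebf1 (permutation p = 0.00013, adjusted p = 0.0010; rho = 0.676, adjusted p = 0.0031; without the farthest libraries 0.690), with 0.871 and 0.751 in the lines. For Acacb it was -0.492 (permutation p = 0.0125, adjusted p = 0.037; rho = -0.426, adjusted p = 0.094; without the farthest libraries -0.372). These 2 members compare with 37.2% of all genes past the threshold in either direction. Fasn had r = 0.253 with the epithelial score over all 24 libraries and 0.707 over the 12 Esr1 libraries, where Acly (0.798), Acaca (0.734) and Thrsp (0.654) also had positive values, against 0.176 for Fasn in the CYP19A1 line. Scd1 had r = -0.151, and -0.629 after the group means were subtracted, when Srebf1 had 0.438. After the same subtraction r over the 24 libraries was negative for Fasn (-0.165), Acly (-0.0932), Acaca (-0.116) and Thrsp (-0.179). Within groups the epithelial slope passed for 0 members in the same limma fit (background 36.7%), with Srebf1 at 0.14 ± 0.19 (adjusted p = 0.57). An unadjusted p under 0.05 was found for 0 members and for 9291 of the 19325 tested genes. The muscle slope also passed for 0 members (background 12.2%), with 0 members and 5519 genes at an unadjusted p under 0.05. The muscle score itself correlated with 0 members by r in the permutation test (background 5.28%). By rho Srebf1 (-0.690, adjusted p = 0.0019) and Acly (-0.555, 0.020) passed with negative values and Acacb (0.508, 0.035) with a positive one. After the group means were subtracted, r with the muscle score was positive for Srebf1 (0.526), Acly (0.237) and Acacb (0.406). The negative values of Srebf1 and Acly were thus not seen within groups. The share of all genes past the threshold by rho was not taken. These correlations share libraries and the groups' differences, and the scores are of RNA and not of cell numbers.

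**Figure D5:**
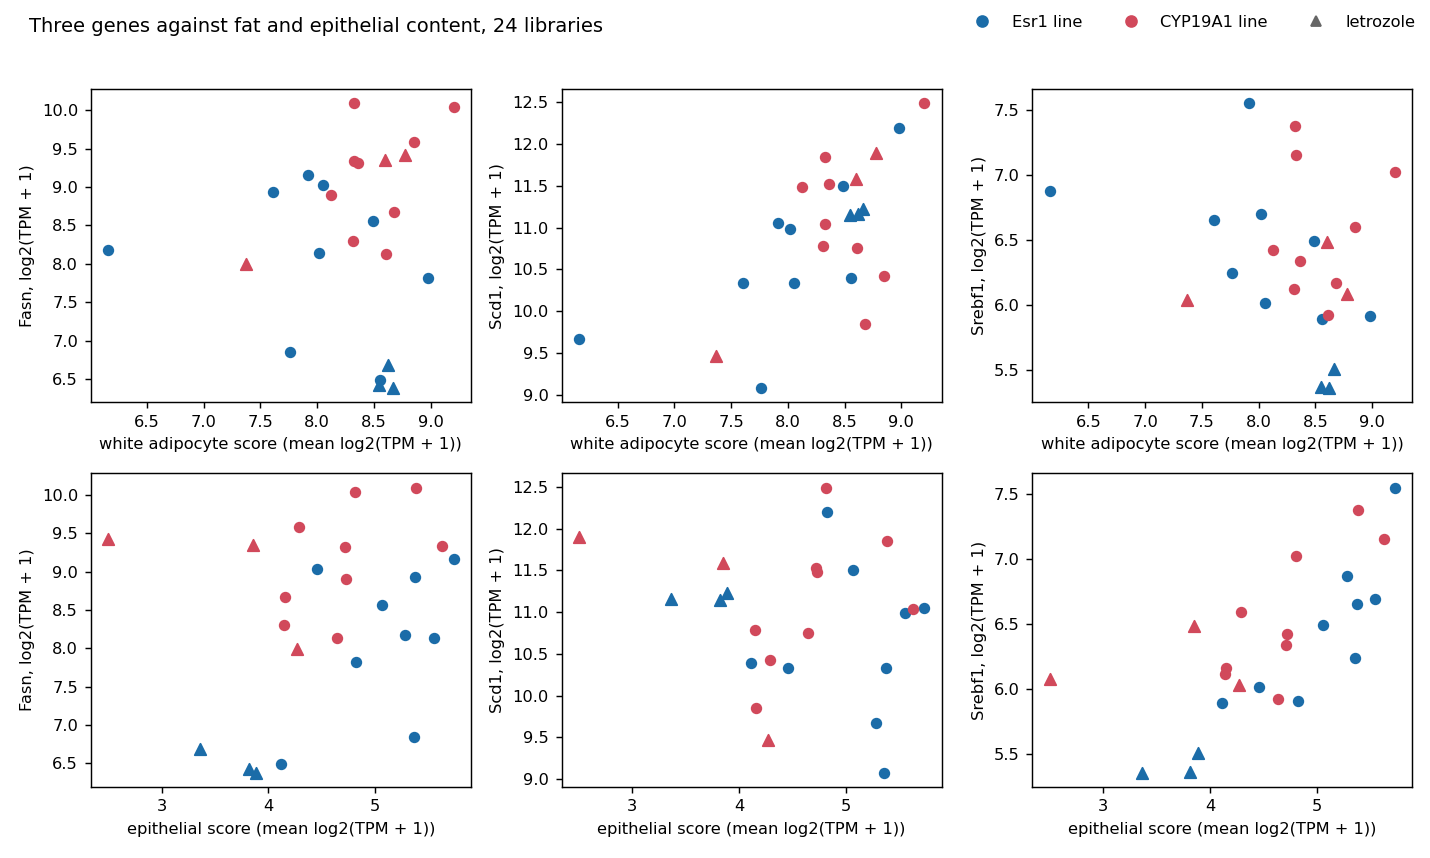
Levels of Fasn, Scd1 and Srebf1 (log2(TPM + 1), vertical) against the white adipocyte score (top) and the epithelial score (bottom), each the mean log2(TPM + 1) of its markers, in 24 libraries; blue and red are the Esr1 and CYP19A1 lines and triangles are letrozole. Scd1 is higher at higher fat scores (r = 0.635) and Srebf1 with the epithelial score (r = 0.707), while Fasn has r = 0.0774 with the fat score.

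Genes around the pathway were read from 4 lists. Of 10 genes that supply citrate, glucose, acetate and NADPH, 5 were higher in CYP19A1 than in Esr1 glands when the 4 conditions were averaged and 0 lower in limma (7.27% of all genes in either direction). They were Slc25a1, the mitochondrial citrate carrier (0.90 ± 0.17, adjusted p = 0.0013), Aacs, acetoacetyl-CoA synthetase (0.96 ± 0.16, 0.00048), Acss2, which makes acetyl-CoA from acetate (0.68 ± 0.20, 0.041), Pcx, pyruvate carboxylase (0.62 ± 0.14, 0.0064), and Slc2a4, the insulin-responsive glucose transporter (0.46 ± 0.12, 0.024). Of 19 regulators 3 were higher: Mlxipl, the carbohydrate-responsive factor ChREBP (0.62 ± 0.15, 0.014), its partner Mlx (0.42 ± 0.10, 0.012) and Lpin1 (0.55 ± 0.11, 0.0029). Of 8 genes of triglyceride assembly 2 were higher, the acyltransferases Mogat1 (0.89 ± 0.14, 0.00034) and Agpat2 (0.75 ± 0.16, 0.0054). Of 10 tested genes of elongation, desaturation and medium-chain release (12 in the table), Elovl5 was higher (0.35 ± 0.077, 0.0056) and Tecr, which completes each elongation cycle, was lower (-0.45 ± 0.083, 0.0013). Within groups a positive slope on the fat score passed for 6 of the 10 supply genes and 12 of the 19 regulators. It passed for 5 of the 8 triglyceride genes and 3 of the 10 elongation genes, beside 41.5% of all genes. The part of fat content in these line differences was not tested.

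With letrozole in the Esr1 line genes of these lists passed in both directions, where 5.81% of all tested genes were lower and 2.85% higher. With the epithelial score as a covariate 0 genes passed limma's test in this comparison, so that none of the calls in the lists was left. The desaturases of polyunsaturated fatty acids were lower, Fads1 at 17.1 ± 1.16 TPM against 50.8 ± 7.53 TPM (-1.51 ± 0.22, limma adjusted p = 0.0012) and Fads2 at 8.98 ± 1.88 TPM against 38.3 ± 9.93 TPM (-1.97 ± 0.45, 0.013). The elongation enzymes Hsd17b12 (-0.59 ± 0.17, 0.040) and Hacd3 (-0.66 ± 0.19, 0.034) were also lower, making 4 of 10 tested, and none was higher. Of the supply genes 2 were higher and 0 lower, Slc2a4 (1.02 ± 0.25, 0.017) and the hexokinase Hk2 (1.00 ± 0.31, 0.046). Insig2, which holds SREBP proteins in the endoplasmic reticulum, was higher (0.70 ± 0.14, 0.0058), the only regulator of 19 past the threshold. Gpam, the first acyltransferase of triglyceride synthesis, was at 71.97 ± 6.19 TPM against 35.2 ± 18.2 TPM (1.15 ± 0.30, 0.023), 1 of 8 in its list. Tamoxifen in the Esr1 line gave a lower level of Fads1 and of no other tested gene in these lists (-0.999 ± 0.22, 0.028). Of the 4 lists 0 genes in the CYP19A1 line passed limma's test with either drug. Between 18 and 20 months in the CYP19A1 line Fads1 (-1.02 ± 0.22, 0.014), Fads2 (-1.49 ± 0.45, 0.044) and Elovl1 (-0.71 ± 0.21, 0.042) were lower. These were 3 of 10 tested in their list, where 6.45% of all genes were lower. Epithelial markers were negative for 13 of 14 there (median -0.74) and milk and secretory markers for 11 of 11 (median -2.04). The part of this content was not tested. Prkaa2, a catalytic subunit of the AMP-activated kinase that inhibits acetyl-CoA carboxylase, was higher (1.51 ± 0.39, 0.025) beside the muscle marker sums given above, whose part in this was not tested. It was 1 of 19 regulators, where 3.01% of all genes were higher.

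Among 11908 tested genes with a mean of at least 2 TPM, genes outside the members among those most like their mean log2(TPM + 1) over the 24 libraries, by Pearson's r, were Slc25a1 (0.944), Acss2 (0.934), Parm1 (0.895), Aacs (0.892), Ppp1r3b (0.856), Hsd11b1 (0.809) and Noc4l (0.806). Slc25a1, Aacs and Acss2 were also the genes most like Fasn alone, with r of 0.938, 0.870 and 0.867. Slc25a1 was at 24.9 ± 2.05 TPM in letrozole-treated Esr1 and 67.7 ± 25.04 TPM in letrozole-treated CYP19A1 glands. Other members had other company. The genes most like Scd2 were Pth1r (0.932), Ppp2r5b (0.907) and Chn1 (0.902), those most like Acacb included Gucd1 (0.840) and Slc20a2 (0.794), and those most like Srebf1 were Tmem79 (0.925), Tspan14 (0.919) and Rbm47 (0.897).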

How the data were processed

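The authors deposited a table of TPM values (transcripts per 1000000, per the file headers) for 55487 genes in 24 mammary gland samples, each column summing to about 1000000. Per the submitters' processing notes the tools were RSEM 1.3.1, STAR 2.7.9a, FastQC 0.11.9 and Trim Galore 0.6.5, and the build was mm10; roles of the tools and the gene annotation: not given in the sources used here. The labels' protocols describe a stranded kit for total RNA with ribosomal RNA removed and random priming. Since TPM keeps no depth, no counting interval was given, and a TPM value is a share that moves when other RNAs take more of the library.

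The log2(TPM + 1) values were fitted with limma 3.58.1 (R 4.3.3; trend and robust) over 19325 genes that reached 1 TPM in 3 or more samples, in a single fit of the 8 groups with 16 comparisons, and p-values were Benjamini-Hochberg adjusted over all tested genes within a comparison (threshold 0.05). Comparisons that share untreated libraries share their variation, and p-values measure the spread between these samples. A second fit added the fat, epithelial and muscle scores. Correlations used 100000 permutations of the libraries, adjusted over all tested genes (NumPy 2.4.6, SciPy 1.17.1, pandas 2.3.3 and Python 3.11.15; figures with matplotlib 3.10.9). The limma fit of the groups and the permutation test of r were tested on simulated data. The fits with scores, the other scalings, the ratios and the motif search were not. Alternatives changed the pseudocount (0.1), the filter, the scaling (median ratio, or without the 50 most abundant genes), the samples fitted, the covariates, the replicate block and single libraries. The text names all 10 members, those list genes that passed, and the genes most like the members by r. The members and lists were chosen with earlier results of these data known. Loricrin, a skin marker listed under both of its symbols, was matched as Lor and counted once. Some genes that the rule for most similar genes picks are not reported here.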

Additional observations from a re-analysis of the deposited data

How the results depend on the processing

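TPM gives no depth, 3 libraries a group leave wide intervals, and fewer cells cannot be told apart from less RNA per cell. Of 22 counts of members past a threshold, 11 had no change of more than 1.5 times under any alternative run. Those 11 counts were 0 in every setting, and each count above 0 in the main setting moved in at least 1 alternative. Among values past a threshold 0 were reversed. Median-ratio scaling moved the median of all genes in the Esr1 age comparison from -0.14 to 0.0092 and in that of tamoxifen with letrozole in the CYP19A1 line from 0.16 to -0.0003, and uncalled members near 0 changed sign with it; the cause of the changes below was not tested. Over the mean of 4 conditions the lines differed in 4 members, in 2 without the filter on low values, in 2 without the 18-month libraries of lowest muscle score (an alternative chosen after seeing the data), and in 2 to 6 with 1 library left out. Letrozole in the Esr1 line gave 3 members, 1 without the filter, 6 when only the compared groups were fitted, 0 with the fat score, 0 with the epithelial score and 0 with the 3 scores as covariates, and 0 to 4 with 1 library left out. The line difference under letrozole gave 1, 0 without the filter, 0 with the 3 scores, and 0 to 2 with 1 library left out (2 without CYP19A1 letrozole replicate 3); under tamoxifen it gave 0, and 0 to 1 with 1 library left out (1 without Esr1 tamoxifen replicate 1). The age comparison of the CYP19A1 line gave 1, and 0 with a pseudocount of 0.1, without the filter, with median-ratio scaling, without the 50 most abundant genes, with only the compared groups, with the epithelial score, with the 3 scores and with the replicate block, and 0 to 1 with 1 library left out. Tamoxifen in the Esr1 line gave 0, and 1 (Scd1, lower) with the 3 scores. The slope on the fat score gave 2, 0 with median-ratio scaling and 1 to 2 with 1 library left out. Correlation with the fat score gave 2 and 0 without the 2 farthest libraries; with the epithelial score 1 and 2 after median-ratio scaling; with the milk score 2 and 4 without the farthest libraries; with the muscle score 0 and 3 without them (the milk and muscle scores were added after seeing the data).

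Replicate numbers did not pair the samples: same-numbered libraries of different groups deviated together no more than others (mean r 0.0014 over 84 pairs, 19 over 0.1, against -0.00056 over 168 pairs). With the replicate block the counts were 3 for the line mean, 1 for the lines under letrozole, 3 for letrozole in the Esr1 line, 2 for the slope on the fat score and 0 for the age comparison of the CYP19A1 line, and 0 for the other fitted comparisons.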
